A study of Mus musculus with 8 samples.

Results

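The thrombospondins Thbs1, Thbs2, Thbs3 and Thbs4 were followed across the 8 libraries of an RNA sequencing study of infarct fibroblasts. The 4 genes were taken by name from the deposited gene table, 4 of 54532 genes, and all 4 were among the 11667 genes that reached the level needed for testing. The cells were cardiac fibroblasts of the mouse, sorted by FACS for the fibroblast surface receptor PDGFRα, 7 days after a coronary artery was occluded. One group of 4 samples was labelled FTbR2KO, in which fibroblasts are meant to lack the TGF-β type II receptor (TbR2) after tamoxifen. The other group of 4 was labelled TbR2fl/fl, the controls that carry the floxed receptor gene and also received tamoxifen. The sources used here do not give the Cre driver, the age or sex of the mice, or whether samples were separate animals, and the spread behind a p-value may be partly technical. Samples keep the numbers of their titles, 1 to 4 for FTbR2KO and 5 to 8 for TbR2fl/fl. Each title also carries a code of its own whose meaning is not explained. By the number in these codes, samples 1 and 5 are the lowest of the 8. A batch behind these codes was not tested.

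Thrombospondins are secreted glycoproteins that sit in the matrix around cells without building it, and so are called matricellular. Thrombospondins 1 and 2 assemble as trimers and carry type I repeats, through which they bind the receptor CD36 and restrain blood vessel growth. Thrombospondin 1 also binds CD47 and can release TGF-β from its latent complex, and its gene is itself induced by TGF-β. Thrombospondins 3 and 4 assemble as pentamers, as does the cartilage protein COMP, which is the fifth thrombospondin. In the injured heart thrombospondin 1 is known from the infarct border zone, thrombospondin 2 from matrix stability, and thrombospondin 4 from a stress response in the endoplasmic reticulum (ER) that involves the transcription factor ATF6.

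Depth was 16088616 to 28731923 reads per library, as recovered from the deposited values. Libraries FTbR2KO 1 and TbR2fl/fl 5 stood apart from the other 6 on the first principal component (scores of -24.4 and -20.9 against -0.108 to 19.0, with 33.0% of the variance). They also carry the lowest numbers in the codes of their titles, and a batch was not tested. Differences, spread and correlations of the members are therefore given with and without them. Tgfbr2, the receptor gene, measured 58.2 ± 1.30 FPKM (SD, n = 4) in the libraries labelled FTbR2KO and 45.5 ± 3.86 FPKM in the controls, the opposite direction to the label, with an exact permutation p of 0.0286 and a limma adjusted p of 0.571. One value for a whole gene does not report on the loss of single exons. Every direction below therefore refers to the libraries as labelled. FPKM, the fragments of a gene scaled to its length in kilobases and to library size, is a level per length. That length joins all annotated exons of a gene, so levels of different genes can be compared only roughly.

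The promoters are shown because the study concerns the TGF-β receptor, and because CAGAC, read as GTCTG on the other strand, is the core bound by Smad proteins, the transcription factors of that receptor. RefSeq promoter windows (GRCm38.p6, from 250 bases before to 50 bases after the RefSeq start, 5′ to 3′ along the gene) matched 3 of the 4 members. Capitals mark this core on either strand. The Thbs2 window is chr17:14694213-14694512, minus strand, that of Thbs3 is chr3:89214930-89215229, plus strand, and that of Thbs4 is chr13:92794769-92795068, minus strand.
Thbs2: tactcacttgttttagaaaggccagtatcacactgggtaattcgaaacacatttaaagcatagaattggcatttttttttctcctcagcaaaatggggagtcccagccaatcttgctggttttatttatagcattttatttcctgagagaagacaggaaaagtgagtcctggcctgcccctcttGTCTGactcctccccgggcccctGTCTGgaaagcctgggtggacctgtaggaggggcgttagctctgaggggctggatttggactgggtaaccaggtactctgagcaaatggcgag
Thbs3: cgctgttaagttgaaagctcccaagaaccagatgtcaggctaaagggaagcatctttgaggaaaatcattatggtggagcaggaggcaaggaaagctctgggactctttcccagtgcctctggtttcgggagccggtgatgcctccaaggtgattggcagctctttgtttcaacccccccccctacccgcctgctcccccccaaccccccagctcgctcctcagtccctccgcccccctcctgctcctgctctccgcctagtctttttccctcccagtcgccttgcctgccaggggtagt
Thbs4: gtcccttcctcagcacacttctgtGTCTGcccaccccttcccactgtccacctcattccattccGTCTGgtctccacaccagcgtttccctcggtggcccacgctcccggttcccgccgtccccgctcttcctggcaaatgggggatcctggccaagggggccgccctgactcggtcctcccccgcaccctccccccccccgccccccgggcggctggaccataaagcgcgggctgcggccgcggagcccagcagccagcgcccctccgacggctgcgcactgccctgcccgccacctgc
Thbs2 held the core at -66 to -62 and at -43 to -39, counted from the RefSeq start. Thbs4 held it at -226 to -222 and at -186 to -182. Thbs3 held none in this window. Of 32851 windows of the same length, 49.6% held at least 1 copy on either strand and 16.2% held 2 or more, so a match is common. GGGCGG, the GC box, read as CCGCCC on the other strand, occurred 3 times in Thbs4 and 1 time in Thbs3. Of all windows 35.7% held at least 1 and 10.7% held 3 or more. TATAAA, read as TTTATA on the other strand, occurred in Thbs2 alone of the 3, at -126 to -121 on the opposite strand, against 13.6% of all windows. None of these matches overlapped. G and C made up 48.3% of the Thbs2 window, 59.0% of that of Thbs3 and 72.0% of that of Thbs4, against a median of 52.7% over all windows. These matches describe letters and do not show binding.

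Thbs1, on chromosome 2 from 118111876 to 118127133, plus strand, was the most abundant of the 4. It measured 248, 462, 459 and 334 FPKM in FTbR2KO 1 to 4 and 230.0, 343, 305 and 435 FPKM in TbR2fl/fl 5 to 8. The groups overlapped over most of their range, and the lowest value of each group came from the libraries that stood apart, FTbR2KO 1 and TbR2fl/fl 5. The means were 376 ± 104 and 328 ± 85.2 FPKM (SD, n = 4 each), a difference smaller than either SD. In bulk RNA of this kind, fewer cells of a type and less RNA per cell cannot be told apart. Thbs1 ranked between the 66th and the 136th of the 11667 tested genes in every library.

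Thbs2, on chromosome 17 from 14665500 to 14694235, minus strand, had the next highest mean of the 4 in each group. It measured 226, 267, 228 and 216 FPKM in FTbR2KO 1 to 4 and 287, 257, 231 and 194 FPKM in TbR2fl/fl 5 to 8. Its means were 234 ± 22.2 and 242 ± 39.3 FPKM. Unlike Thbs1, Thbs2 was not lowest in FTbR2KO 1 or TbR2fl/fl 5, and TbR2fl/fl 5 held its highest value.

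Thbs3, on chromosome 3 from 89215180 to 89226837, plus strand, was the least abundant and the steadiest member. It measured 43.0, 46.1, 46.8 and 45.7 FPKM in FTbR2KO 1 to 4 and 47.9, 55.5, 55.1 and 42.3 FPKM in TbR2fl/fl 5 to 8. The means were 45.4 ± 1.66 and 50.2 ± 6.31 FPKM. In TbR2fl/fl 5, 6 and 7 it exceeded every library labelled FTbR2KO, and in TbR2fl/fl 8 it lay below all of them.

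Thbs4, on chromosome 13 from 92751590 to 92794818, minus strand, was the most variable member. It measured 113, 217, 203 and 305 FPKM in FTbR2KO 1 to 4 and 115, 186, 269 and 270.3 FPKM in TbR2fl/fl 5 to 8. The means were nearly equal, 209.6 ± 78.3 and 210.1 ± 74.8 FPKM. Again FTbR2KO 1 and TbR2fl/fl 5 were the lowest of their groups, and the gene varied 2.69-fold over the 8 libraries. Comp, the gene of the fifth family member (chromosome 8, 70373558 to 70382066, plus strand), measured 192, 185, 189 and 163 FPKM in FTbR2KO 1 to 4 and 218, 174, 234 and 310.0 FPKM in TbR2fl/fl 5 to 8. Its group means were 182 ± 13.1 and 234 ± 56.7 FPKM, and TbR2fl/fl 6 lay among the libraries labelled FTbR2KO.

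**Figure D1:**
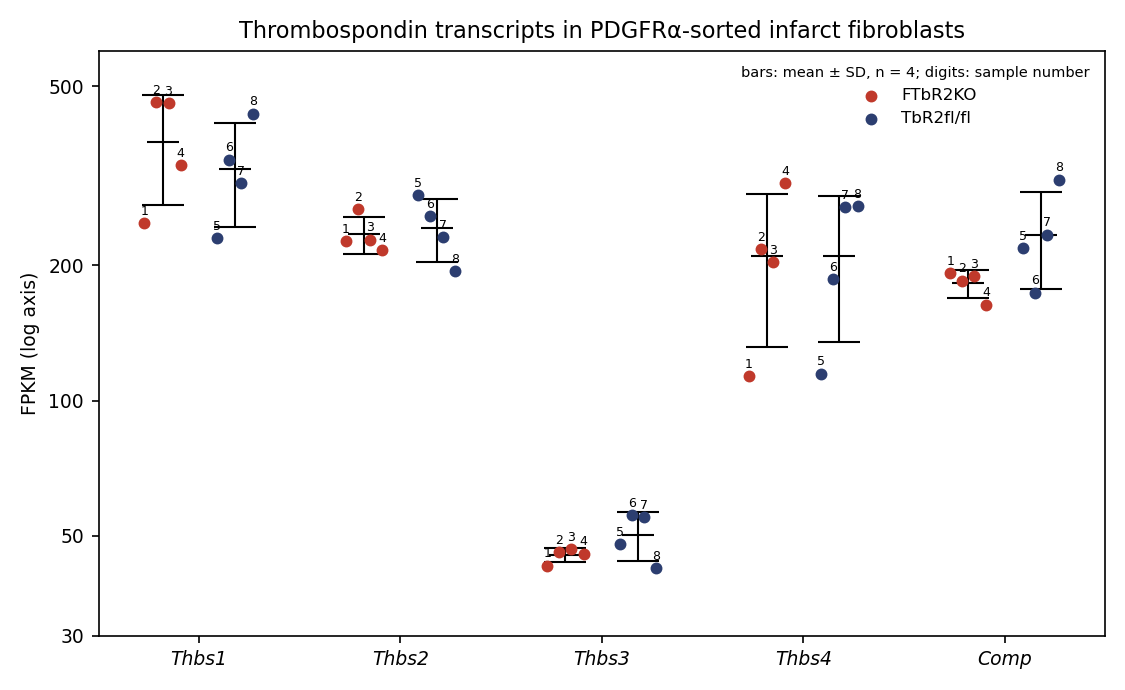
FPKM (log axis) of Thbs1, Thbs2, Thbs3, Thbs4 and Comp in each library, with digits for the sample number and black bars for the mean ± SD of 4 samples. The groups overlap for every gene, and samples 1 and 5 are the lowest for Thbs1 and Thbs4.

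The members' order of levels was only partly fixed. Thbs3 was below Thbs1, Thbs2, Thbs4 and Comp in 8 of 8 libraries. Thbs1 exceeded Thbs4 and Comp in 8 of 8 libraries and Thbs2 in 7 of 8, the exception being TbR2fl/fl 5. Thbs2 exceeded Thbs4 in 5 of 8 and Comp in 6 of 8, and Thbs4 exceeded Comp in 5 of 8, so these 3 neighbours in the order did not separate beyond their spread. Summed FPKM of the 4 members was 865 ± 161 in the libraries labelled FTbR2KO and 831 ± 110 in the controls. Thbs1 made up 33.9% to 49.0% of that sum, Thbs2 20.6% to 42.2%, Thbs4 16.9% to 33.8% and Thbs3 4.50% to 7.06%.

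**Figure D2:**
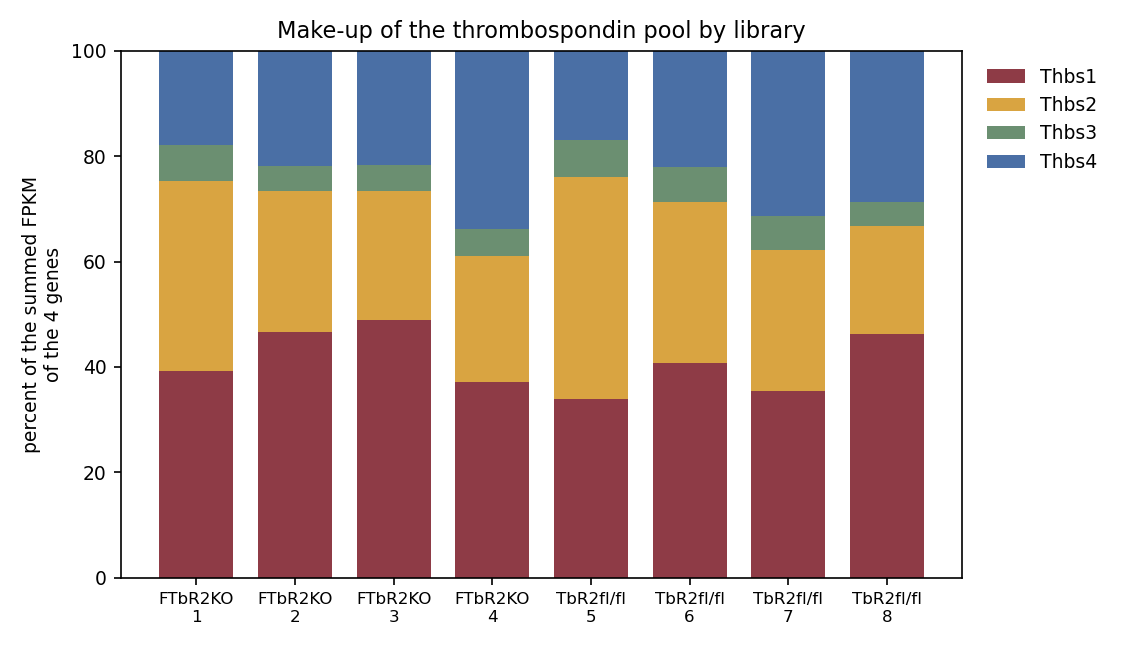
Percent of the summed FPKM of the 4 thrombospondin genes that each gene contributes, 1 bar per library. Thbs1 and Thbs2 together make up most of every bar. The part of Thbs4 is smallest in samples 1 and 5, with 16.9% in sample 5.

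No thrombospondin passed the test between the groups. The comparison asks how fibroblasts with and without the TGF-β type II receptor differ. It was made with limma on log2(FPKM + 1) over all tested genes, with Benjamini-Hochberg adjustment and a threshold of 0.05. Of the 4 members 0 were called, against 0.0171% of all tested genes (2 of 11667, both higher). At an unadjusted p under 0.05 the members also gave 0, against 8.61% of all tested genes. The log2 fold change of Thbs1 was 0.19 (SE 0.25, 95% confidence interval -0.37 to 0.74, limma adjusted p = 0.847). As a fold on the log2(FPKM + 1) scale this interval runs from 0.773 to 1.67, so it includes both a fall and a rise. That of Thbs2 was -0.038 (SE 0.14, interval -0.35 to 0.27, limma adjusted p = 0.954). Thbs3 had the narrowest interval, with a log2 fold change of -0.14 (SE 0.10, interval -0.37 to 0.097, limma adjusted p = 0.726). Thbs4 had the widest, with -0.0075 (SE 0.34, interval -0.78 to 0.77, limma adjusted p = 0.996). Exact two-sided permutation tests over the samples gave p = 0.457 for Thbs1, 0.800 for Thbs2, 0.229 for Thbs3 and 0.971 for Thbs4, where 4 against 4 samples allow no p below 0.0286. The groups overlapped for all 4 members, whereas 4.41% of all tested genes had groups that did not overlap, 2.52% with the libraries labelled FTbR2KO higher and 1.89% with them lower. The signs of Thbs2 and Thbs4 are not fixed: after quantile normalization both lay above 0 (0.050 and 0.078). Conversion to TPM, which moved the median of all tested genes by 0.15, put Thbs3 at 0.029, Thbs2 at 0.13 and Thbs4 at 0.16.

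Balance within the family was also compared, since a ratio of members in 1 library does not change when a library is scaled by a single factor. The log2 ratio of Thbs1 to Thbs2 was 0.64 ± 0.37 in the libraries labelled FTbR2KO and 0.41 ± 0.60 in the controls (SD, n = 4 each; exact permutation p = 0.571). Linear ratios ran from 1.10 to 2.01 and from 0.803 to 2.24. The ratio of Thbs4 to Thbs3 averaged 4.59 ± 1.65 and 4.26 ± 1.75, with a difference in mean log2 ratio of 0.13 (exact permutation p = 0.743). Thbs1 supplied 43.0 ± 5.68% of the members' FPKM in the libraries labelled FTbR2KO and 39.1 ± 5.60% in the controls (exact permutation p = 0.314). After Benjamini-Hochberg adjustment over these 3 measures each exact p was 0.743. Without TbR2fl/fl 5 the 2 log2 ratios changed sign, with differences of -0.019 for Thbs1 to Thbs2 and -0.11 for Thbs4 to Thbs3. Without FTbR2KO 4 the latter was -0.076.

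The members differed in how far samples of 1 group lay apart. The fewest reads behind any member's value were 3598, for Thbs3 in FTbR2KO 1, which gives a counting error of 1.67%. That figure treats reads as independent and covers counting error only. The SD within groups on the log2 scale was 0.59 for Thbs4, larger than in 97.5% of tested genes, and 0.40 for Thbs1, larger than in 93.5%. It was 0.19 for Thbs2 and 0.13 for Thbs3, larger than in 64.5% and 37.9% of tested genes, where the median was 0.16. The 2 members with the widest spread were 1 trimer-forming and 1 pentamer-forming gene.

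**Figure D3:**
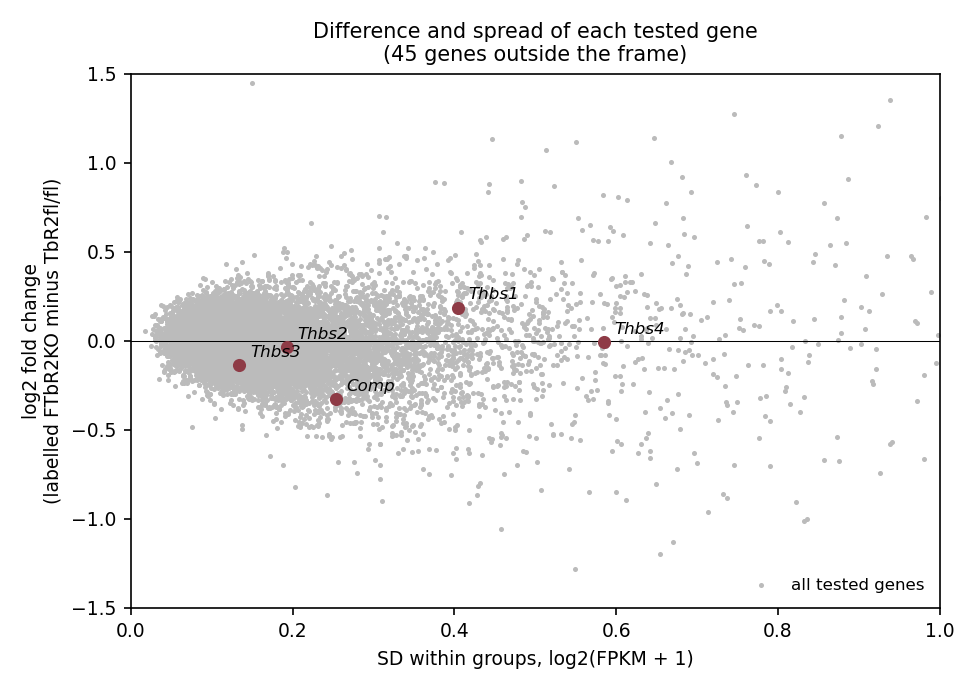
Log2 fold change (labelled FTbR2KO minus TbR2fl/fl, vertical) against the SD within groups on the log2(FPKM + 1) scale (horizontal) for the tested genes in grey (45 lie outside the frame) and the thrombospondin family in red. Thbs4 and Thbs1 lie far to the right at small differences, and Thbs2 and Thbs3 lie within the main cloud.

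The spread of Thbs1 and Thbs4 was smaller without FTbR2KO 1 and TbR2fl/fl 5, and that of Thbs2 and Thbs3 was not reduced in the same way. In those libraries Thbs1 measured 230.0 to 248 FPKM, against 305 to 462 FPKM in the other 6. Thbs4 measured 113 to 115 FPKM there, against 186 to 305 FPKM. For Thbs1 and Thbs4 these were therefore the lowest libraries of all 8, a pattern that 18.6% of all tested genes shared. Tgfb1, which encodes the ligand that thrombospondin 1 can activate, had it too, at 14.0 and 15.4 FPKM against 25.3 to 37.0 FPKM. Without these libraries the within-group SD fell from 0.59 to 0.31 for Thbs4 and from 0.40 to 0.26 for Thbs1. It was 0.19 with and 0.18 without them for Thbs2, and 0.13 with and 0.15 without them for Thbs3. The differences between groups changed little: the log2 fold change was 0.21 (SE 0.18) for Thbs1 and -0.0035 (SE 0.21) for Thbs4, with limma adjusted p of 0.667 and 0.997. That of Thbs3 was -0.13 (SE 0.12). Thbs2 then lay at 0.062 (SE 0.14), on the other side of 0.

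No pair of members passed a test of varying together from library to library. Over the 8 libraries and 6 pairs of members, the highest Pearson's r of log2(FPKM + 1) was 0.645, for Thbs1 and Thbs4 (exact permutation p = 0.0884, 0.470 after Benjamini-Hochberg adjustment; Spearman's rho 0.405, exact permutation p = 0.327, adjusted 0.654). Without the 2 libraries farthest from the median of Thbs1, which are FTbR2KO 1 and TbR2fl/fl 5, r was -0.367, so this relation rests on those libraries. For Thbs2 and Thbs3 r was 0.437 (exact permutation p = 0.281) and rho 0.714 (exact permutation p = 0.0576), adjusted to 0.561 and 0.346, and r was 0.327 without the 2 libraries farthest from the median of Thbs2, TbR2fl/fl 5 and 8, and 0.554 without FTbR2KO 1 and TbR2fl/fl 5. Thbs2 ran against Thbs4 with r = -0.554 (exact permutation p = 0.157, adjusted 0.470) and rho = -0.500 (exact permutation p = 0.216, adjusted 0.649), and r was -0.122 without TbR2fl/fl 5 and 8 but -0.680 without FTbR2KO 1 and TbR2fl/fl 5. The 2 trimer-forming genes Thbs1 and Thbs2 gave r = -0.336 (exact permutation p = 0.413, adjusted 0.619) and rho = -0.119 (exact permutation p = 0.793), with r = -0.0016 without FTbR2KO 1 and TbR2fl/fl 5, the 2 farthest. Thbs1 and Thbs3 gave r = -0.148 (exact permutation p = 0.716, adjusted 0.802) and rho = -0.143 (exact permutation p = 0.752, adjusted 0.793), and r was -0.689 without the same 2 libraries. For Thbs3 and Thbs4 r was 0.116 (exact permutation p = 0.802) and rho -0.262 (exact permutation p = 0.536, adjusted 0.793), with r = -0.161 without the 2 farthest and -0.368 without FTbR2KO 1 and TbR2fl/fl 5. The sizes and in part the signs of these correlations thus changed with the libraries left out.

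The genes whose levels followed each member most closely were ranked by Pearson's r over the 8 libraries among 5996 other genes with a mean of at least 5 FPKM, as a description without a test. For Thbs1 they were Cs, which encodes citrate synthase (r = 0.986), the transcription factor gene Ets1 (0.981), the receptor kinase gene Grk5 (0.981), the RNA-binding protein gene Caprin1 (0.979) and the ubiquitin ligase gene Rnf4 (0.978). Over the 6 libraries other than FTbR2KO 1 and TbR2fl/fl 5 the same genes gave 0.943 to 0.973. The genes were picked over all 8 libraries, so values over 6 of them are no independent check. For Thbs2 they were the endothelin receptor gene Ednra (0.929), Zfp608 (0.902), the adaptor gene Grb10 (0.902), Tro (0.878) and Gucy1a1 (0.873), a subunit of the nitric oxide receptor, with 0.804 to 0.963 over the 6. For Thbs3 they were Fam234a (0.914), Pef1 (0.902), the methyltransferase gene Prmt2 (0.883), the autophagy receptor gene Sqstm1 (0.882) and Isg20l2 (0.882), with 0.876 to 0.971 over the 6. For Thbs4 they were Gpr107 (0.962), the phosphatase modifier gene Ppme1 (0.955), the cyclin gene Ccnd3 (0.955), Trib2 (0.952) and Ube2q1 (0.952). Those of Thbs4 leaned most on FTbR2KO 1 and TbR2fl/fl 5, since they stood at 0.738 to 0.824 over the 6.

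**Figure D4:**
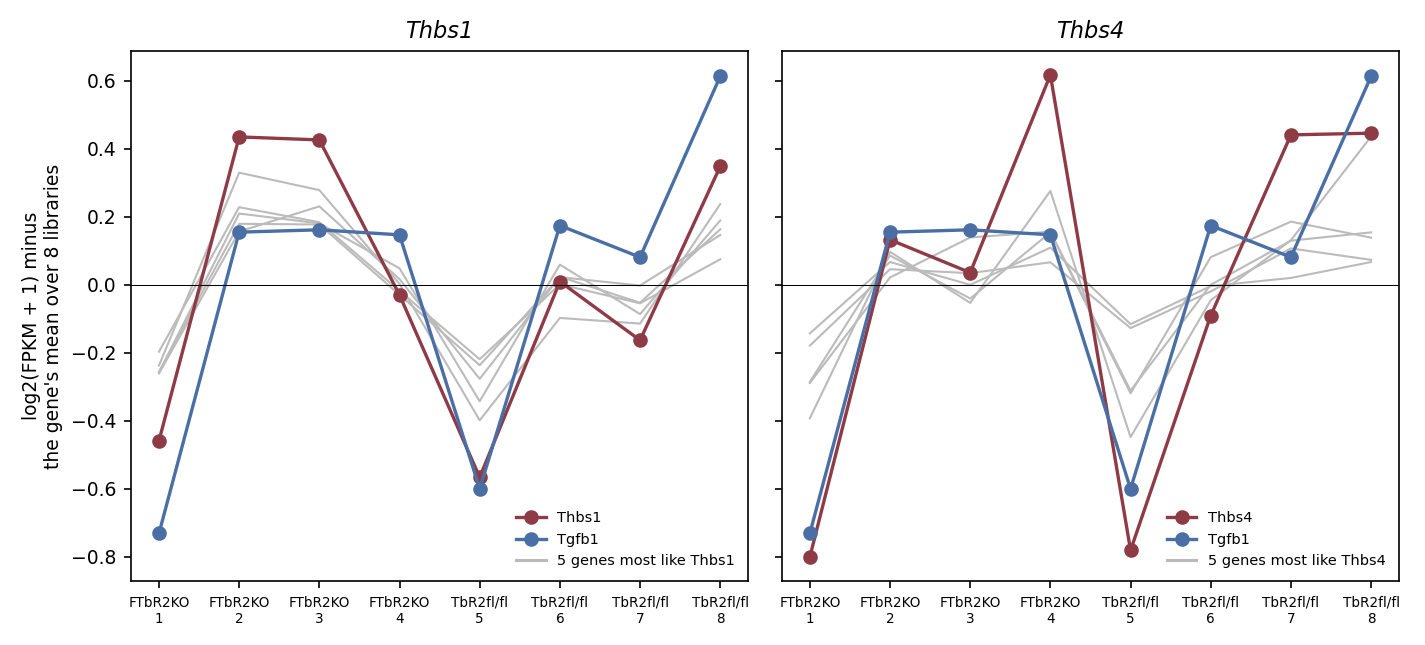
Log2(FPKM + 1) minus each gene's mean over the 8 libraries, by library, for Thbs1 (left) and Thbs4 (right) in red, Tgfb1 in blue and the 5 genes most like each member in grey. Lines only join values of 1 gene; Thbs1, Thbs4 and Tgfb1 are all lowest in samples 1 and 5.

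Gene structure bears on how well each member was counted. The deposited spans equalled those of GENCODE M21 (GRCm38) for all 4 members. The longest coding transcript had 22 exons in Thbs1, Thbs2 and Thbs4 and 23 in Thbs3. Coding lengths fell into the subgroups of the family, at 3513 and 3516 bases for Thbs1 and Thbs2 and 2868 and 2889 bases for Thbs3 and Thbs4. Thbs1 and Thbs2 also had long 3′ UTRs, of 2107 and 2016 bases, against 256 and 164 bases in Thbs3 and Thbs4. FPKM divided by 6073, 7003, 4823 and 3289 bases for Thbs1 to Thbs4, all annotated exons joined. The longest coding transcripts measured 5848, 5895, 3190 and 3198 bases, so the divisor exceeded this transcript most for Thbs3. Orders, shares and ratios between members carry this difference. Thbs3 has 11 annotated transcripts, of which 3 are protein-coding, so its level mixes coding and other transcripts. Its exons share 318 bases (6.59%) with Mtx1, a metaxin gene on the opposite strand that was itself at 3.57 to 5.04 FPKM. Exons of Thbs1 share 208 bases (3.42%) with the lincRNA Gm29233, which did not exceed 0.485 FPKM in any library. The sources do not say whether strand was used in counting, and reads of the overlapping stretches cannot be assigned to 1 gene.

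Around Thbs3, 11 tested genes lay within 50 kb and 0 were called, with 1 above 0 and 10 below (log2 fold changes of -0.39 to 0.17). Of all tested genes 0.0171% were called, and 5694 lay above 0 and 5973 below. A shared change of this neighbourhood was not tested. At the low end was Efna1, an ephrin ligand gene, at 4.35 ± 0.320 against 6.00 ± 0.612 FPKM, with non-overlapping groups (limma adjusted p = 0.571). Groups did not overlap in 4.41% of all tested genes. Mtx1, whose span from 89209081 to 89227088 on the minus strand contains that of Thbs3, measured 4.25 ± 0.254 against 4.33 ± 0.602 FPKM. The 2 tested genes within 50 kb of Thbs4, Serinc5 and the metaxin gene Mtx3, had log2 fold changes of 0.033 and -0.017. No tested gene lay within 50 kb of Thbs1 or Thbs2.

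Receptors of the thrombospondins were for the most part expressed, and 0 of 11 tested passed the threshold, against 0.0171% of all tested genes. All tested genes split into 5694 above 0 and 5973 below, the background for this list and those that follow. Of the 14 on the list, 9 of the tested members lay above 0 and 2 below, with a median log2 fold change of 0.075 against -0.0045 over all tested genes. The direction of this median rests on 1 library, since without TbR2fl/fl 5 it was -0.018. Cd47 ranged over 23.9 to 26.9 FPKM in the libraries labelled FTbR2KO and 23.1 to 26.0 FPKM in the controls, with a log2 fold change of 0.092 (SE 0.077). Lrp1, a scavenger receptor that takes up thrombospondins, measured 274 ± 11.6 against 251 ± 23.5 FPKM. Cacna2d1, a calcium channel subunit that binds thrombospondins, measured 6.66 ± 0.300 against 5.93 ± 0.313 FPKM. Sdc1, a heparan sulphate proteoglycan of the cell surface, measured 47.2 ± 5.25 against 55.4 ± 3.80 FPKM, and its groups did not overlap (exact permutation p = 0.0286, limma adjusted p = 0.587). Cd36, the receptor for the type I repeats, was too low to be tested, at 0.721 ± 0.317 against 0.609 ± 0.161 FPKM. Itga4 and Itga6 stayed under 1 FPKM in every library.

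Binding partners and proteases were also uncalled, with 0 of 15 tested past the threshold, 9 above 0 and 6 below, and a median of 0.059. Col1a1, a fibrillar collagen that thrombospondins bind, measured 3934 ± 424 against 5005 ± 283 FPKM without overlap (limma adjusted p = 0.571), a difference that quantile normalization turned to 0.040. Adamts1, a protease that cleaves thrombospondins 1 and 2, measured 82.2 ± 11.9 against 64.4 ± 14.5 FPKM. Col5a1 measured 567 ± 93.4 against 676 ± 53.6 FPKM, and Vegfa, the angiogenic factor that thrombospondin 1 restrains, 23.3 ± 4.75 against 18.4 ± 4.49 FPKM. Tgfb1 measured 23.5 ± 6.35 against 26.2 ± 8.86 FPKM (log2 fold change -0.13, SE 0.28). Without FTbR2KO 1 its log2 fold change was 0.087, and without TbR2fl/fl 8 it was 0.048.

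ATF6 and ER chaperone genes were examined because thrombospondin 4 binds ATF6 inside the cell. Of 14, all tested, 0 were called, 13 lay above 0 and 1 below, with a median of 0.20. Of all tested genes 0.0171% were called, and 5694 lay above 0 and 5973 below, with a median of -0.0045. Atf6 measured 6.88 ± 0.883 against 5.80 ± 0.511 FPKM (exact permutation p = 0.0571, limma adjusted p = 0.591). Dnajc3 measured 43.8 ± 8.35 against 35.6 ± 4.20 FPKM, Hsp90b1 173 ± 50.4 against 135 ± 33.3 FPKM and Dnajb9 18.7 ± 4.25 against 16.0 ± 1.18 FPKM. For 11 of the 14 (78.6%), FTbR2KO 1 and TbR2fl/fl 5 were the 2 lowest libraries, against 18.6% of all tested genes. Thbs1 and Thbs4 shared this pattern. In FTbR2KO 4, where Thbs4 was at its highest, the mean log2(FPKM + 1) of the list was 5.06, below 5.70 and 5.59 in FTbR2KO 2 and 3. A link between Thbs4 and these genes was not tested.

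**Figure D5:**
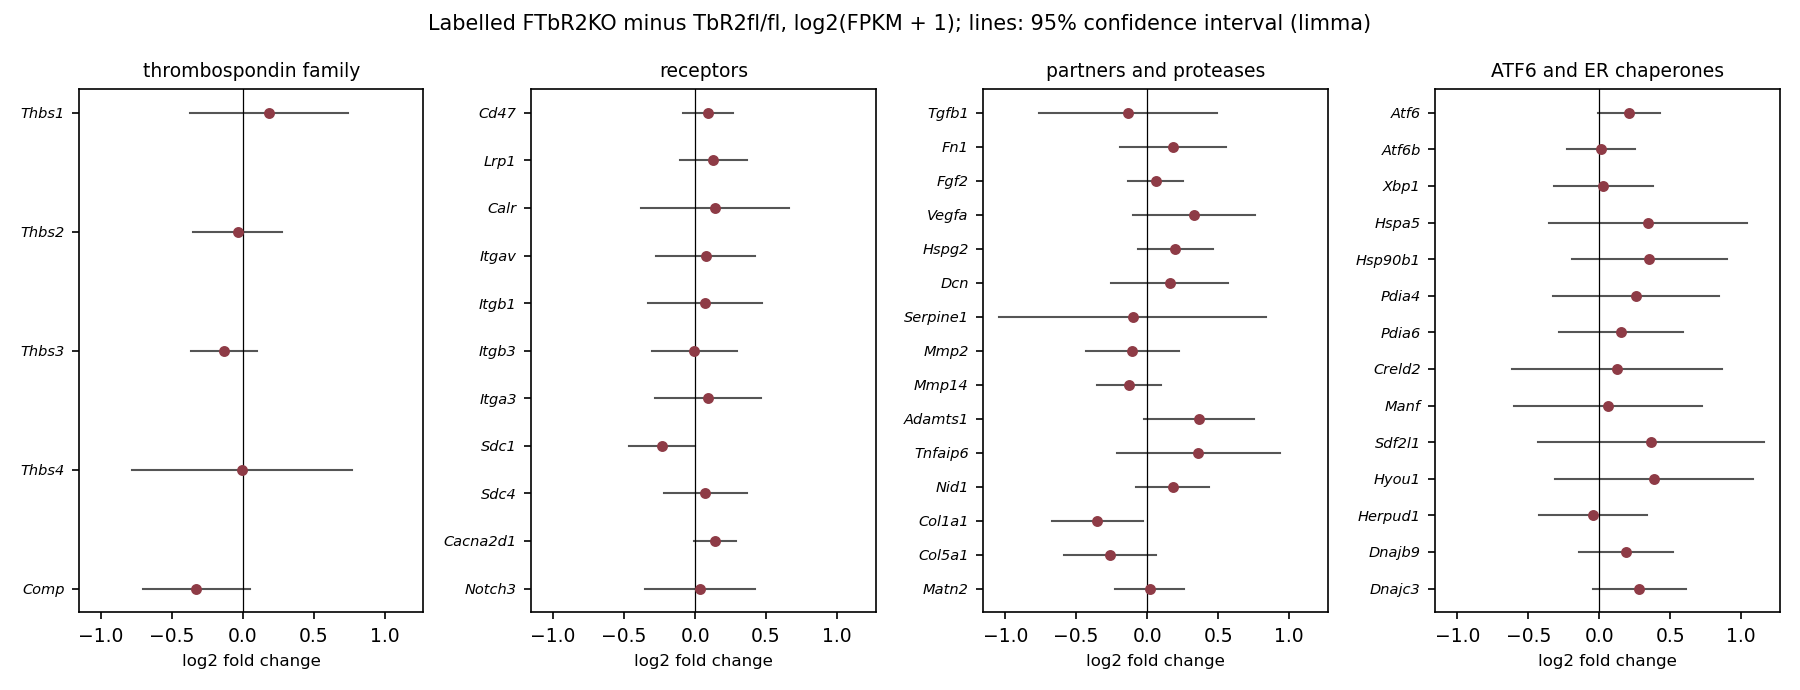
Log2 fold changes (labelled FTbR2KO minus TbR2fl/fl) with limma's 95% confidence intervals for the thrombospondin family, its receptors, its binding partners and proteases, and ATF6 with ER chaperones. The intervals of all 4 members span 0, and those of Thbs4 and Thbs1 are wide beside those of Thbs2 and Thbs3.

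Tendon and cartilage matrix genes were included because thrombospondin 4 and COMP are abundant in those tissues. Of 12 tested, 0 were called, 3 lay above 0 and 9 below, with a median of -0.12 that conversion to TPM turned to 0.060. Cnmd, which encodes chondromodulin, measured 9.44 ± 4.61 against 1.82 ± 0.783 FPKM without overlap (limma adjusted p = 0.571). It passed the threshold without FTbR2KO 4 (limma adjusted p = 0.0232) and with Xist as a covariate (0.0394). Matn4, a matrilin gene, measured 9.93 ± 1.58 against 12.6 ± 2.01 FPKM and Chad, which encodes chondroadherin, 3.77 ± 0.813 against 4.53 ± 0.467 FPKM. Comp itself had a log2 fold change of -0.33 (SE 0.17, limma adjusted p = 0.602). Without TbR2fl/fl 8, its highest library, the log2 fold change was -0.18.

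Markers of other cell types were also measured, and their part in the levels of the members was not tested. Platelets store thrombospondin 1. Of 8 platelet and megakaryocyte markers 5 stayed under 1 FPKM in every library. The sum of the 8 was 2.85 to 4.61 FPKM in the libraries labelled FTbR2KO and 3.16 to 5.91 FPKM in the controls. The platelet chemokine gene Pf4 measured 1.84 ± 0.215 against 1.99 ± 1.29 FPKM. Of 10 macrophage markers 5, Ptprc and Csf1r among them, stayed under 1 FPKM, with sums of 8.27 to 12.6 and 10.3 to 12.7 FPKM. Of 9 endothelial markers 5 stayed under 1 FPKM, with sums of 20.9 to 27.3 and 19.9 to 29.8 FPKM, most of it from Tek (20.7 ± 3.23 against 19.9 ± 5.11 FPKM). All 8 mural cell markers were testable, with sums of 91.1 to 139 and 102 to 171 FPKM. Of 8 cardiomyocyte markers 6 stayed under 1 FPKM, with sums of 2.74 to 5.23 and 3.75 to 4.52 FPKM. No marker of these lists was at 0 in all 8 libraries. Tested were 2 of 8 platelet, 3 of 10 macrophage, 2 of 9 endothelial, 8 of 8 mural and 1 of 8 cardiomyocyte markers. Of the tested markers 0 were called, against 0.0171% of all tested genes. The 10 fibroblast markers were all tested and summed to 13517 to 16016 and 14454 to 19483 FPKM.

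Thbs1 also belongs to the genes that respond within minutes to stress, which tissue dissociation can raise. The 16 immediate-early and dissociation stress genes were all expressed, and 0 were called, with 6 above 0, 10 below and a median of -0.065. This median changed sign without TbR2fl/fl 6 (0.011), without TbR2fl/fl 7 (0.056), after quantile normalization (0.016) and after conversion to TPM (0.10). Fos measured 1484, 1419, 1288 and 1411 FPKM in FTbR2KO 1 to 4 and 1196, 1620.5, 1865 and 1202 FPKM in TbR2fl/fl 5 to 8. FTbR2KO 1 held the highest Fos value of its group and the lowest of Thbs1, whereas TbR2fl/fl 5 was the lowest control for both genes. The part of dissociation in the level of Thbs1 was not tested.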

How the data were processed

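The authors deposited 1 table of gene-level FPKM for 54532 genes, with names, coordinates and lengths per the file headers. Tools listed in the submitters' processing notes are HTSeq 0.6.1, Cufflinks 2.1.1, TopHat2 2.0 and CASAVA, and GRCm38.p6 and mm10 are the listed builds, all without roles. Gene lengths were used as deposited, per the file headers. FPKM times length was a whole multiple of 1 step per library for 100.0% of nonzero values (tolerance 0.01), which gave the reads; the main test used FPKM.

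A gene was tested where 4 or more of the 8 samples reached 1 FPKM, with limma 3.58.1 (R 4.3.3, trended variance, log2(FPKM + 1), Benjamini-Hochberg over all tested genes). A pseudocount understates changes of low genes. Single values were compared by exact permutation in Python 3.11.15. Reads of this comparison were simulated in 3 runs, with 200 genes changed and a mean of 11515 genes. Recovery was 34.3% at a 1.5-fold change, 81.1% at 2-fold and 97.0% at 4-fold, and 4.06% of calls were false. Genes were simulated independently of one another, without a shift shared by a whole library as seen in FTbR2KO 1 and TbR2fl/fl 5. The rates may therefore differ in the real data. They are averages over the changed genes and do not give the recovery of a member. The SD within groups of Thbs4 and Thbs1 was larger than in 97.5% and 93.5% of tested genes. The rates therefore cannot be carried over to these members.

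The members and the 11 gene lists were chosen with earlier results of these data known. Named genes are the members, Comp, Tgfbr2, Cd36, Cd47, Tgfb1, Atf6 and Fos, up to 4 members of a list by smallest p, tested genes within 50 kb of a member and the 5 genes most like each member (highest r, mean FPKM at least 5, without predicted genes and pseudogenes). From lists of other cell types and of stress genes, and from the neighbours, only some of these are named, and further list members were named after their values were seen. Alternatives were pseudocount, filters, scaling, weights, a covariate, voom and leaving out libraries.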

Additional observations from a re-analysis of the deposited data

Results flagged for a closer look

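Of 38 sets of 4 values checked (the members, other genes and ratios named above, in each group), 1 held a sample far from the rest. Tgfb1 was at 14.0 FPKM in FTbR2KO 1, against 26.5 to 26.8 FPKM in FTbR2KO 2 to 4. Chance sets off about 1 set in 20. No thrombospondin was set apart in this way, although FTbR2KO 1 and TbR2fl/fl 5 were their groups' lowest libraries for Thbs1 and Thbs4.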

How the results depend on the processing

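No member passed the threshold under any of the 18 alternatives run. The log2 fold change of Thbs1 stayed above 0 in all, at 0.028 to 0.37 with 1 library left out. Leaving out 1 library gave -0.14 to 0.047 for Thbs2, -0.21 to -0.085 for Thbs3 and -0.27 to 0.26 for Thbs4. Conversion to TPM moved the median of all tested genes by 0.15 and gave 0.13 for Thbs2, 0.029 for Thbs3, 0.16 for Thbs4, 0.027 for Tgfb1 and 0.14 for Mtx1. Relative to that median Thbs2 lay at -0.016, Thbs3 at -0.12 and Thbs4 at 0.014. Quantile normalization gave 0.050 for Thbs2, 0.078 for Thbs4 and 0.040 for Col1a1. Thbs4 lay at 0.015 with array weights and at 0.013 with Xist as a covariate, and Thbs2 at 0.062 without FTbR2KO 1 and TbR2fl/fl 5 together. Mtx1 lay at 0.0038 with voom. With 1 library left out, the difference in the log2 ratio ran from -0.019 to 0.47 for Thbs1 to Thbs2 and from -0.11 to 0.37 for Thbs4 to Thbs3, Tgfb1 ran from -0.36 to 0.087 and Mtx1 from -0.088 to 0.047. The count of called genes was 1 with the stricter filter and 2 to 8 with 1 library left out (8 without FTbR2KO 4); the tendon and cartilage list gave 1 call with Xist as a covariate and 0 to 1 with 1 library left out. The causes were not tested. The 2 other planned count tests on recovered reads, by quasi-likelihood and by size factors, were not run, because count models were kept to values deposited as counts; voom was run on the recovered reads. No paired analysis was made, since the labels name no pairs. Samples are numbered 1 to 8 across both groups, and the labels do not say what the further code in each title marks. Whether samples were paired cannot be told from them. Each value of a member rested on at least 3598 reads.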
